A study of Gallus gallus with 5 samples.

Results

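GATA4, GATA6, FOXL2 and WT1 are transcription factors that mark granulosa cells and the gonadal lineage they come from. Their rows were taken from the table of normalized counts by gene name, and each name had a single row, which gave 4 genes of 24356 listed. All 4 were abundant enough to be tested, with 13305 genes tested in all. RNA was measured in granulosa cells, which lie directly around the oocyte, from the 6–8-mm follicles of broiler breeder hens. The FF group holds libraries of 2 hens fed ad libitum and the RF group libraries of 3 hens kept on a restricted allowance. Hens were 28 weeks old when the diets started and stayed on them for 6 weeks, and the cells of 5 to 6 follicles were pooled within each hen, so that each library stands for a different hen. Both groups share the breed, and the diets were given in separate pens. The FF hens sequenced were picked for many preovulatory follicles and the RF hens for a normal number, so diet, pen and follicle number cannot be told apart. A library that the authors discarded from the FF group was not analysed here. The study had called WT1 higher in RF hens from these same libraries by DESeq2, and its difference is therefore not independent evidence.

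GATA4 and GATA6 are zinc finger proteins that bind GATA sequences. In mammalian granulosa cells they act on genes of steroid and inhibin synthesis, and they are bound by the FOG cofactors. FOXL2 is a forkhead factor that keeps ovarian somatic cells from turning towards a testicular fate in mammals, and in chickens it is an early factor of the female gonad. WT1 is a zinc finger protein needed for the gonad to form, and it is known mostly from immature granulosa cells, from Sertoli cells and from the kidney. WT1 messages are spliced into isoforms that differ in how their proteins bind DNA and RNA, which gene-level values do not separate. At the follicle stage sampled here, selection into the preovulatory group takes place and granulosa cells begin to differentiate.

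Normalized counts summed to 29491091 and 28891495 in the FF libraries, against 25929234 to 27277087 in the RF libraries. The spacing of the low values gave about 25400000 and 31600000 reads in genes for FF replicates 1 and 2, against 21400000, 27500000 and 33600000 for RF replicates 1, 2 and 3. FF replicate 2 and RF replicate 3 were therefore the deepest libraries. The smallest member value, WT1 in FF replicate 2, rests on about 1434 reads, for which counting error alone is 2.64%. Granulosa markers other than the 4 factors summed to 200513 and 253805 normalized counts in FF hens, against 95733 to 102821 in RF hens. GJA1, a gap junction protein, INHBB, an inhibin subunit, and AMH were the most abundant of them over the 5 libraries. Much of the gap came from INHA, at 73862 and 36972 in FF hens, against 2980 to 3440 in RF hens, and from INHBB. AMH ran the other way, at 21048 and 17336, against 23945 to 38052. Of 13 tested genes of the list, FOXL2 and GATA4 included, 5 passed as higher and 0 as lower in limma, next to 0.842% and 0.241% of all tested genes. The log2 fold change of the 13 was positive in 10 and negative in 3. The genes that passed were INHA, INHBB, NR5A1, CYP11A1 and WNT4, which are counted again in the lists of partners, ovarian factors and targets below. The study named these genes as higher in FF hens from these same libraries, so their share and direction are not independent evidence. Markers of theca and stroma summed to 9559 and 9854 in FF hens, against 7099 to 10716 in RF hens, with ACTA2, COL1A2 and MYH11, genes of muscle and matrix, the most abundant. RF replicate 1 had the highest value in 11 of 17 tested theca and stroma markers, and its CYP17A1, a theca enzyme, stood at 1794, while the FF libraries had 73 and 134 and the other RF libraries 84 and 207. None of the 4 factors was highest in RF replicate 1, and the part of theca cells in their values was not tested.

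Of the 4 factors, 0 passed an adjusted p of 0.05 in limma, where 1.08% of all tested genes did. At an unadjusted p under 0.05 there were 2 of the 4, next to 17.8% of all tested genes, namely WT1 on the lower side (8.22% of tested genes) and GATA6 on the higher side (9.58%). The same genes were the ones whose FF and RF libraries did not overlap. WT1 was lower in both FF libraries than in every RF library, as were 16.9% of tested genes. GATA6 was higher in both FF libraries than in every RF library, as were 19.3% of tested genes. In RNA from whole cell layers, fewer cells of a type and less RNA per cell cannot be told apart.

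WT1 (ENSGALG00000012115) had 1717 and 1311 normalized counts in FF replicates 1 and 2, against 2549, 3488 and 7223 in RF replicates 1, 2 and 3. Both FF hens lay below every RF hen, and RF replicate 3 stood far above the other RF hens. WT1 rose with read depth over the RF hens and fell with it over the FF hens, and the part of depth was not tested. Mean and SD were 1514 ± 287 for FF (n = 2) and 4420 ± 2472 for RF (n = 3). The log2 fold change was −1.42 (SE, the standard error, 0.41, 95% interval −2.40 to −0.43), or 2.67-fold higher in RF hens, with an unadjusted p of 0.0116 and an adjusted p of 0.156 from limma. In absolute size this change was larger than that of 95.3% of tested genes. Among RF hens the highest value was 2.83 times the lowest, and their coefficient of variation of 55.9% exceeded that of 99.4% of the 5203 genes averaging 1000 or more, whose median was 10.5%. Without RF replicate 3 the log2 fold change was −0.99 (adjusted p = 0.104), smaller but with a narrower interval of −1.52 to −0.46. Without RF replicate 1, the library with the most theca and stroma markers, it was −1.74 (adjusted p = 0.145). Without FF replicate 2 it was −1.22, and the interval of −2.70 to 0.26 then included 0.

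**Figure D1:**
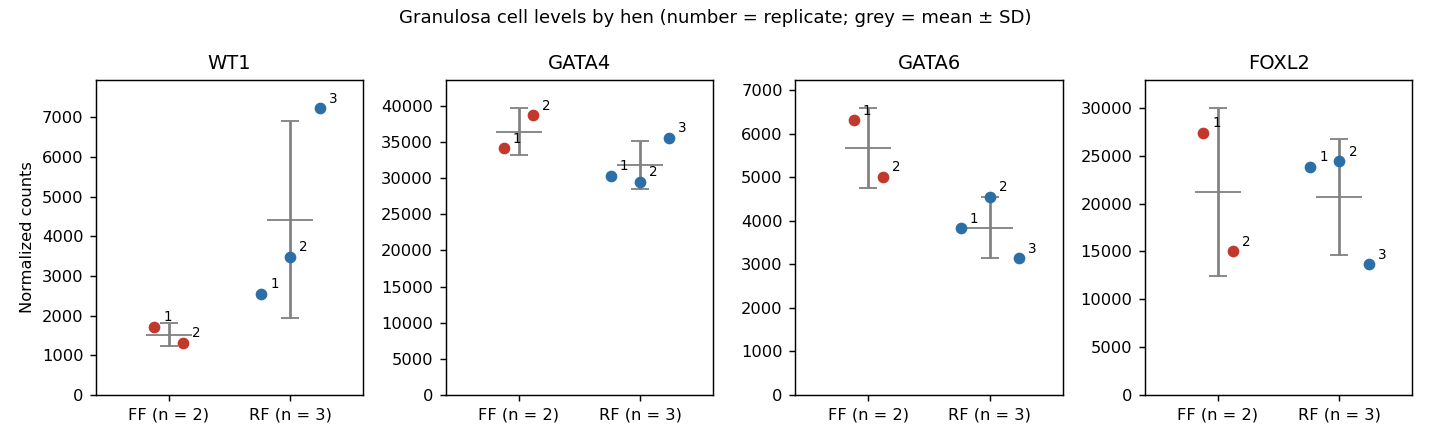
Normalized counts (y axis, linear from 0) of WT1, GATA4, GATA6 and FOXL2 in FF hens (red, left) and RF hens (blue, right), with each point a library and its number the replicate. Grey bars give the mean and SD (n = 2 and n = 3). The FF points lie below all RF points for WT1 and above them for GATA6, whereas those for GATA4 and FOXL2 overlap with RF.

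GATA6 (ENSGALG00000014976) ran the other way. It had 6314 and 5014 normalized counts in FF replicates 1 and 2, against 3834, 4557 and 3143 in RF replicates 1, 2 and 3. Both FF values lay above the RF values, although FF replicate 2 was only a little above RF replicate 2. Mean and SD were 5664 ± 919 for FF (n = 2) and 3845 ± 707 for RF (n = 3), and the log2 fold change was 0.57 (SE 0.19, 95% interval 0.11 to 1.02), a 1.48-fold difference. The unadjusted p was 0.0219 and the adjusted p 0.202 from limma. When each library was scaled to its own total, FF replicate 2 had 173.5 GATA6 counts per 1000000 and RF replicate 2 had 172.6, so the gap between the groups nearly closed. With equal totals the log2 fold change was 0.43 (95% interval −0.04 to 0.89), and the median over all tested genes was −0.13 in that scaling, next to 0.0074 as deposited. Leaving out single libraries gave 0.40 to 0.73.

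GATA4 (ENSGALG00000016662), the other GATA factor of granulosa cells, was the steadiest of the 4 over the 5 hens. It had 34175 and 38730 normalized counts in FF replicates 1 and 2, against 30350, 29524 and 35625 in RF replicates 1, 2 and 3. RF replicate 3 fell between the FF hens, so the groups overlapped. Mean and SD were 36453 ± 3221 for FF (n = 2) and 31833 ± 3310 for RF (n = 3), and the highest of the 5 values was 1.31 times the lowest. The log2 fold change was 0.20 (SE 0.14, adjusted p = 0.519 from limma). Its 95% interval ran from −0.14 to 0.54, that is from 0.90-fold to 1.45-fold, which leaves out a doubling or a halving. The coefficient of variation among RF hens was 10.4%, next to a median of 10.5% over genes averaging 1000 or more.

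FOXL2 (ENSGALG00000029282) varied between hens within each diet rather than between diets. It had 27392 and 15017 normalized counts in FF replicates 1 and 2, against 23861, 24440 and 13657 in RF replicates 1, 2 and 3. FF replicate 1 was the highest of all and RF replicate 3 the lowest, and the groups overlapped. Mean and SD were 21205 ± 8750 for FF (n = 2) and 20653 ± 6065 for RF (n = 3). The log2 fold change was 0.022 (SE 0.34, adjusted p = 0.985 from limma), with a 95% interval from −0.79 to 0.83, or 0.58-fold to 1.78-fold. A difference of up to that size in either direction was thus not excluded with these 5 hens. Its sign was not stable: the log2 fold change was −0.41 without FF replicate 1, 0.46 without FF replicate 2 and −0.25 without RF replicate 3, and −0.12 with equal totals. The low FOXL2 values belong to FF replicate 2 and RF replicate 3, which were the deepest libraries, and 12.9% of tested genes had both of these libraries below the other 3. The part of depth in these values was not tested. In the RefSeq table of the GRCg7b assembly, which is not the build of these files, FOXL2 overlaps PIK3CB, which encodes a kinase subunit. PIK3CB had 1321 and 1332 normalized counts in FF hens, against 2088, 2053 and 2991 in RF hens, with its highest value in the library where FOXL2 was lowest (log2 fold change −0.82, adjusted p = 0.0999). The sources used here do not say whether reads were counted by strand, so some reads of the overlap could belong to either gene.

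The ratio of a pair of factors within a library does not depend on how the libraries were scaled. Raw ratios between genes also reflect gene length, so only their difference between groups was read. With 5 libraries the smallest p that an exact permutation test can give is 0.1, and none of the 6 pairs could pass 0.05. The log2 ratio of WT1 to GATA6 was −1.88 and −1.93 in FF replicates 1 and 2, against −0.59, −0.39 and 1.20 in RF replicates 1, 2 and 3. The FF hens were almost equal to each other in this ratio, and every RF hen was higher. That separation follows from WT1 and GATA6 themselves, which ran opposite ways without overlap, so it is not further evidence. The difference was −1.98 log2 units, so that WT1 was 3.95-fold higher relative to GATA6 in RF hens (exact permutation test, two-sided, p = 0.1, 0.3 when adjusted over the 6 pairs). The ratio of WT1 to GATA4 differed by −1.61 (exact p = 0.1), and that of WT1 to FOXL2 by −1.44 (exact p = 0.2), also with no overlap between the groups. GATA6 to FOXL2 differed by 0.54 (exact p = 0.2), a little more in FF hens, with −2.117 in FF replicate 1 just above −2.119 in RF replicate 3. GATA4 to GATA6 and GATA4 to FOXL2 overlapped between the groups, with differences of −0.37 and 0.18. Leaving out single libraries gave −2.31 to −1.42 for WT1 to GATA6 and −1.91 to −1.27 for WT1 to GATA4. The WT1 to FOXL2 difference ran from −1.89 to −0.74, the smallest of these without RF replicate 3. GATA6 to FOXL2 ran from 0.28 to 0.81 and GATA4 to GATA6 from −0.62 to −0.11. GATA4 to FOXL2 did not keep its sign, with values from −0.35 without FF replicate 2 to 0.70 without FF replicate 1.

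**Figure D2:**
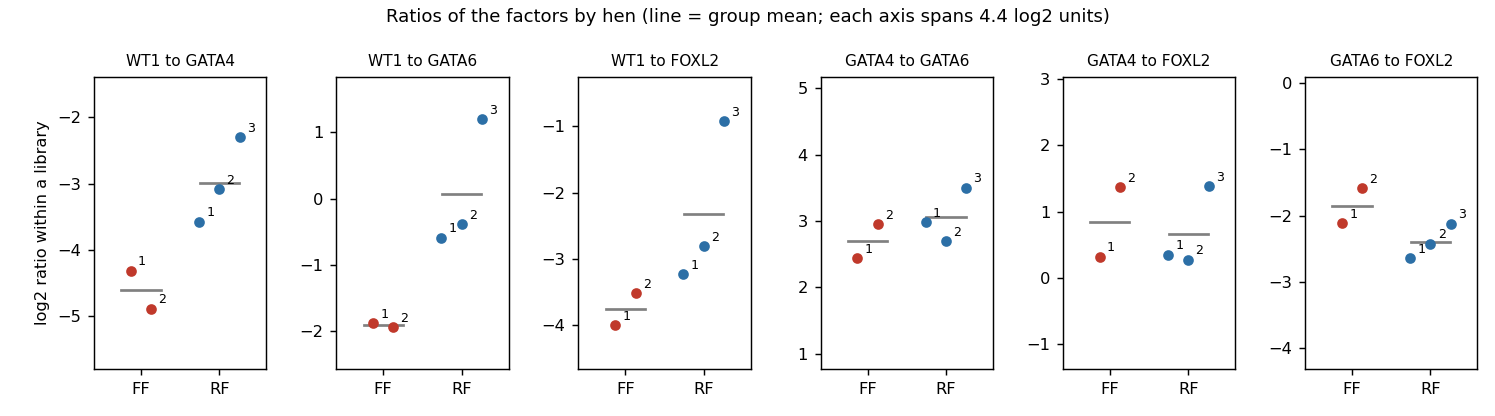
log2 ratio of each pair of factors within a library (y axis, each spanning the same number of log2 units) in FF hens (red, left) and RF hens (blue, right), with each point a library, its number the replicate and the line the group mean. All 3 ratios with WT1 on top were lower in FF hens than in every RF hen, while GATA4 to GATA6 and GATA4 to FOXL2 overlapped.

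The factors did not share a pattern over the hens. For each factor, the genes most like it were sought among 7955 genes that have a symbol and average 200 or more, by the root mean square difference of log2 values centred on each gene's own mean over the 5 libraries. KCNK2, a potassium channel gene, was closest to WT1, at a difference of 0.14 log2 units. It had 11201 and 9522 normalized counts in FF hens, against 21929, 28883 and 57105 in RF replicates 1, 2 and 3, the same order of hens as WT1. FGFR2, a fibroblast growth factor receptor, and ARID5B, a DNA-binding protein gene, followed at 0.16 and 0.22. These 3 genes were picked for likeness to WT1, so their lack of overlap between the groups follows from that choice. They did not pass the test (adjusted p = 0.0922, 0.121 and 0.0858 from limma), although the study listed them as higher in RF hens. NTAN1, ARFIP1 and TNFAIP1 were most like GATA4, at 0.0099 to 0.024. Their order of hens was also that of GATA4, with the highest value in FF replicate 2 and the lowest in RF replicate 2. ZNF777, a zinc finger gene, and NFKB2, a subunit of NF-kappa-B, were among the genes most like GATA6, at 0.046 and 0.055. RARA, a retinoic acid receptor, TBCC, a tubulin folding cofactor, and LETMD1, a mitochondrial membrane protein gene, were most like FOXL2, at 0.047 to 0.066, with the same low values in FF replicate 2 and RF replicate 3. RARA had 1110 and 601 normalized counts in FF hens, against 901, 1016 and 535 in RF hens. Between the factors themselves the differences were larger, 0.35 between GATA4 and GATA6, 0.36 between GATA6 and FOXL2 and 1.15 between WT1 and GATA6. All of these are descriptions over 5 libraries that share the same 2 diets, and a shared order of hens follows from picking like genes.

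**Figure D3:**
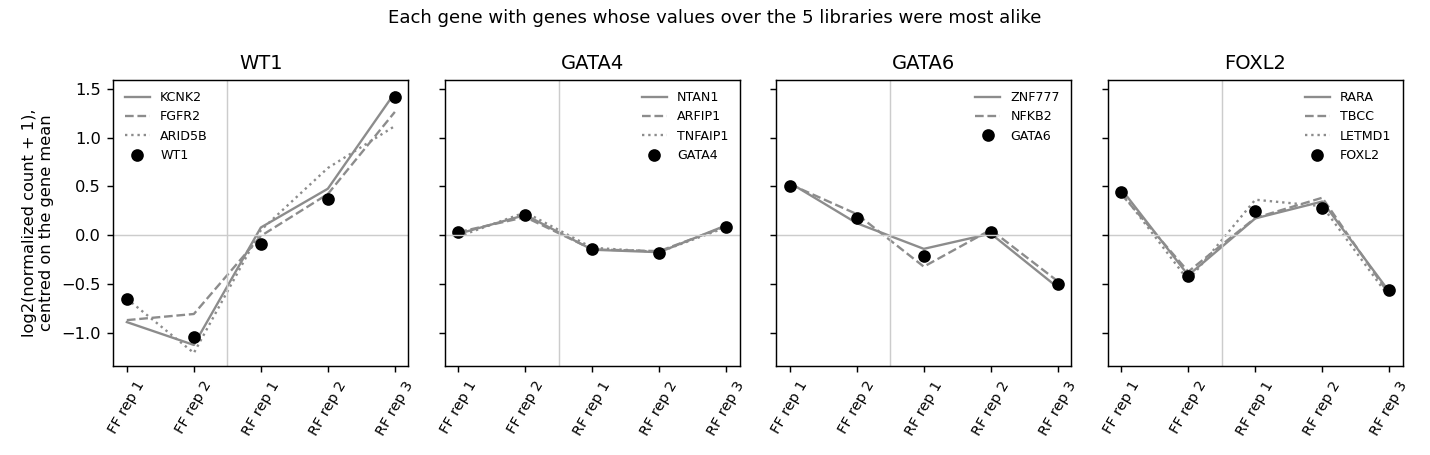
log2(normalized count + 1) centred on each gene's mean (y axis) over the 5 libraries (x axis, FF left of the grey line and RF right of it), for each factor (points) and genes most like it (grey lines, drawn to guide the eye, 3 for WT1, GATA4 and FOXL2 and 2 for GATA6). WT1, KCNK2, FGFR2 and ARID5B are highest in RF replicate 3, and FOXL2 and its neighbours are low in FF replicate 2 and RF replicate 3.

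Of the other GATA genes and TRPS1, given here after their values were seen, GATA2, GATA3 and GATA5 were near the floor in these cells. TRPS1, of the same list, had 300 and 401 normalized counts in FF hens, against 403, 294 and 429 in RF hens. GATA2, of blood cell lineages, had 7 and 6 normalized counts in FF hens, against 7, 10 and 4 in RF hens, GATA3 stayed at 12 to 24 in all hens, and GATA5 was at 8 or below. The FOG cofactors were well expressed. ZFPM1, which encodes FOG1, had 11333 and 8247 normalized counts in FF hens, against 10297, 11344 and 9869 in RF hens, a log2 fold change of −0.12 (adjusted p = 0.753 from limma). ZFPM2, which encodes FOG2, the partner of GATA4 in gonads of mice, had 2181 and 2287 in FF hens, against 2012, 1992 and 2130 in RF hens (log2 fold change 0.13, adjusted p = 0.619), so that both FF hens lay just above the RF hens. Of the 4 tested genes of this family besides the members, 0 passed in either direction. At an unadjusted p under 0.05 there were 0 of the 4 in limma, next to 17.8% of all tested genes. Their median log2 fold change was −0.11, next to 0.0074 over all tested genes.

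Partners of WT1 and factors of the early gonad were mostly without a called change. Of 15 tested, 1 was higher in FF hens, 0 lower and 14 did not pass, and their median log2 fold change was −0.12. At an unadjusted p under 0.05 there were 5 of the 15 in limma, next to 17.8% of all tested genes. Over all genes, 0.842% were called higher and 0.241% lower. The gene called was NR5A1, a nuclear receptor that WT1 and GATA4 are known to work with in mammals. It had 17378 and 15528 normalized counts in FF hens, against 8090, 6920 and 7679 in RF hens. The FF hens lay clearly above the RF hens, at a log2 fold change of 1.12 (SE 0.13, adjusted p = 0.0228 from limma). NR5A1 passed without RF replicate 3 (adjusted p = 0.0348), but not without FF replicate 1, FF replicate 2, RF replicate 1 or RF replicate 2 (0.176, 0.134, 0.0652 and 0.0807). EMX2, a homeobox factor of the early gonad, and NR0B1, a repressor of NR5A1 in mammals, overlapped between the groups and were also chosen after their values were seen. EMX2 had 3997 and 3071 normalized counts in FF hens, against 2918 to 3302 in RF hens, and NR0B1 had 2299 and 1914, against 1749 to 2618. BASP1, which turns WT1 into a repressor in mammalian cells, was chosen in the same way. It had 11456 and 11106 in FF hens, against 6701, 7728 and 6865 in RF hens, a log2 fold change of 0.67 that did not pass (adjusted p = 0.0593). NR5A2, a nuclear receptor related to NR5A1, had 2981 and 81 in FF hens, against 28, 24 and 3 in RF hens, with FF replicate 1 far above all others (log2 fold change 5.12, adjusted p = 0.169). WTIP, a WT1-interacting protein gene, had 134 and 145 in FF hens, against 204, 215 and 247 in RF hens (log2 fold change −0.66, adjusted p = 0.194). CITED2, a cofactor of WT1 in the gonad of mice, had 426 and 343 in FF hens, against 590, 755 and 468 in RF hens (log2 fold change −0.63, adjusted p = 0.244). Of the 15 tested, both FF hens lay above every RF hen in 3 and below in 3, next to 19.3% and 16.9% of all tested genes. BASP1 and NR5A2 were among those above and WTIP and CITED2 among those below, all named after their values were seen. The study named NR5A1 and NR5A2 as higher in FF hens from these same libraries, so their direction is not independent evidence.

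Of 14 tested factors of the ovarian pathway, 1 was higher in FF hens, 0 lower and 13 did not pass, with a median log2 fold change of −0.020. Over all tested genes, 0.842% were called higher and 0.241% lower. At an unadjusted p under 0.05 there were 8 of the 14 in limma, next to 17.8% of all tested genes, and both FF hens lay above every RF hen in 6 and below in 5, next to 19.3% and 16.9%. The gene called was WNT4, a ligand that acts beside FOXL2 in the ovary. The study listed it as higher in FF hens, so its direction is not independent evidence. WNT4 had 24141 and 12506 normalized counts in FF hens, against 4391, 3944 and 3784 in RF hens, a log2 fold change of 2.11 (SE 0.27, adjusted p = 0.0265 from limma). It passed without RF replicate 3 (0.0457), but not without FF replicate 1 (0.169), FF replicate 2 (0.0577), RF replicate 1 (0.0860) or RF replicate 2 (0.0820). FOXO1, a forkhead factor that FSH signalling holds back in granulosa cells of rats, was named after its values were seen. It had 3627 and 4149 in FF hens, against 6081, 7270 and 9681 in RF hens, with the same order of RF hens as WT1 and a log2 fold change of −0.96 that did not pass (adjusted p = 0.0858). RSPO1, which drives ovarian fate with WNT4 in mammals, was also named later and was below the minimum mean for testing, at 1 and 0 in FF hens, against 5, 18 and 12 in RF hens.

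Factors of the testis pathway, which FOXL2 holds down in the mammalian ovary, were mostly low in all 5 hens. Of 7 tested, 0 passed in either direction, and their median log2 fold change was −0.55. At an unadjusted p under 0.05 there were 2 of the 7 in limma, next to 17.8% of all tested genes. SOX9, SOX8 and DMRT1 were named after their values were seen. SOX9, the central factor of Sertoli cells, had 21 and 28 normalized counts in FF hens, against 30, 284 and 20 in RF hens, so that RF replicate 2 alone stood out. SOX8, its close relative, was also highest there, at 77, against 6 and 10 in FF hens and 25 and 7 in the other RF hens. FOXL2 in that hen was 24440, the second highest of the 5. DMRT1, the sex-determining factor of birds on the Z chromosome, had 67 and 16 in FF hens, against 2, 1 and 2 in RF hens (log2 fold change 3.70, SE 0.76, adjusted p = 0.0774 from limma). Of the genes in this list with at least 200 in a group mean, FGFR2 and TESC, a calcium-binding protein gene, had log2 fold changes of −1.40 and −0.55 and did not pass (adjusted p = 0.121 and 0.518).

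Among 22 tested granulosa genes known as targets of GATA factors, FOXL2 or WT1, mostly from mammals, 4 were higher in FF hens, 0 lower and 18 did not pass. Over all tested genes, 0.842% were called higher and 0.241% lower. The median log2 fold change of the 22 was 0.21, with 14 positive and 8 negative. In limma 11 of the 22 had an unadjusted p under 0.05, next to 17.8% of all tested genes. The study had pointed to all 4, so their direction is not independent evidence. INHA, the inhibin alpha subunit and a GATA4 target in mice, had a log2 fold change of 4.0 (SE 0.28, adjusted p = 0.0115 from limma), and CYP11A1, which makes pregnenolone, one of 3.72 (SE 0.31, adjusted p = 0.0115). STAR, which carries cholesterol into mitochondria, and INHBB followed at 3.41 and 1.95 (adjusted p = 0.0479 and 0.0275). INHA passed without any single library (0.0112 to 0.0417), whereas without FF replicate 1 CYP11A1, STAR and INHBB had 0.176, 0.246 and 0.213, and without FF replicate 2 they had 0.132, 0.185 and 0.155. Without RF replicate 1, INHBB (0.0838) did not pass, nor did STAR and INHBB without RF replicate 2 (0.0878 and 0.0829) or STAR without RF replicate 3 (0.0793). For GATA4 and GATA6 themselves the log2 fold changes were 0.20 and 0.57, and neither passed.

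Other targets in the list did not pass, and those described here were named after their values were seen. IGF2, a growth factor gene, had 6872 and 5188 normalized counts in FF hens, against 2379, 2463 and 3334 in RF hens (log2 fold change 1.15, adjusted p = 0.0593 from limma). HSD3B1, a steroid enzyme, had 8599 and 13318 in FF hens, against 5041, 7673 and 5308 in RF hens (log2 fold change 0.86, adjusted p = 0.16). Both FF hens lay above the RF hens in these genes. That held for 8 of the 22 tested, and in 4 both FF hens lay below every RF hen. Over all tested genes the shares were 19.3% and 16.9%. FST, AMH and CYP19A1, given next, were among the 4 below. FST, which encodes follistatin and is activated by FOXL2 in mammals, had 21342 and 20999 normalized counts in FF hens, against 25415, 33429 and 41174 in RF hens, a log2 fold change of −0.63 (adjusted p = 0.196 from limma). The order of RF hens was again that of WT1 and FOXO1, which is also the order of their depth (21400000, 27500000 and 33600000 reads in genes). The part of depth in this order was not tested, and the share of all genes with this order was not counted. RF replicate 3 was highest in FST and lowest in FOXL2. AMH, a hormone of small follicles and a target of WT1 and GATA4 in Sertoli cells of mammals, had 21048 and 17336 in FF hens, against 38052, 27826 and 23945 in RF hens (log2 fold change −0.62, adjusted p = 0.21). CYP19A1, the aromatase that FOXL2 activates in several vertebrates, had 121 and 15 in FF hens, against 295, 165 and 616 in RF hens (log2 fold change −2.82, adjusted p = 0.184). In the chicken, aromatase is made in the theca, and CYP19A1 is also in the theca and stroma list. FSHR, the FSH receptor, overlapped between the groups at 5650 and 4591 in FF hens, against 3725, 4409 and 6380 in RF hens (log2 fold change 0.11, adjusted p = 0.848).

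**Figure D4:**
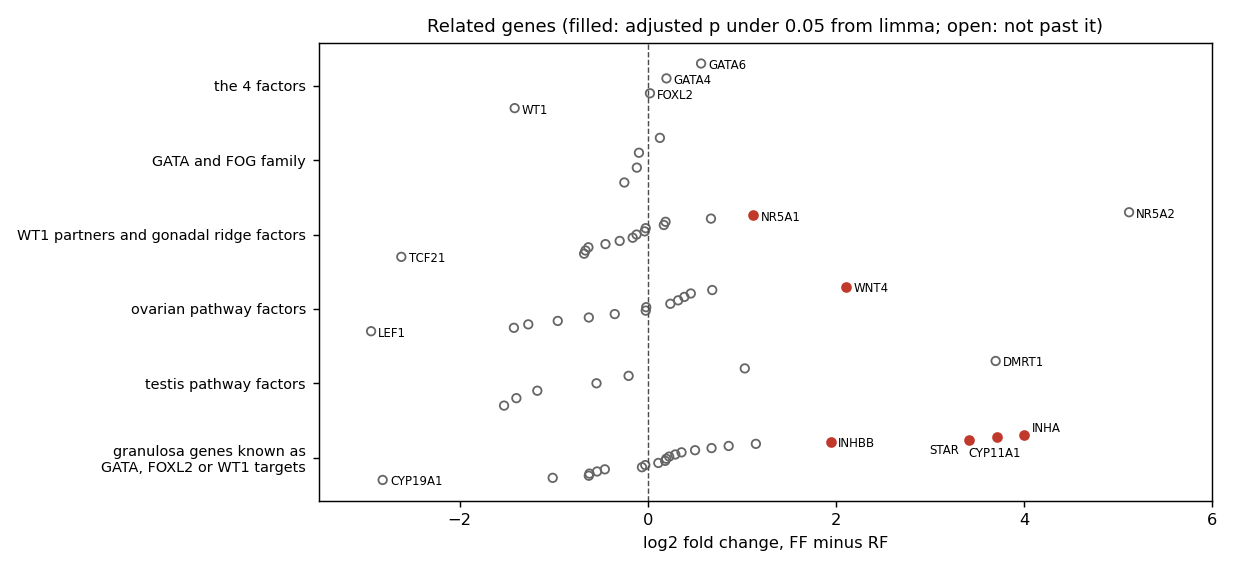
log2 fold change, FF minus RF (x axis), of the 4 factors and of each tested gene in the related lists (rows), filled red where the adjusted p from limma was under 0.05 and open otherwise. The 6 filled points, NR5A1, WNT4, INHBB, STAR, CYP11A1 and INHA, all lie to the right of 0, and none of the 4 factors is filled.

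WT1 and GATA6 can also be made outside granulosa cells, in the surface epithelium of the ovary and in the theca. Surface epithelium markers summed to 3899 and 5465 normalized counts in FF hens, against 4570 to 5751 in RF hens. Of 7 tested genes of this list 0 passed in limma, with 3 at an unadjusted p under 0.05, next to 17.8% of all tested genes. Both FF hens lay above every RF hen in 2 of the 7 and below in 3, next to 19.3% and 16.9% of all tested genes. MSLN, named after its values were seen, was among those above. It had 134 and 118 in FF hens, against 55, 54 and 36 in RF hens (log2 fold change 1.39, adjusted p = 0.0974 from limma). UPK3B, a mesothelial marker, was listed at 0 in all 5 libraries, and LHX9 and KRT18 were at 7 or below. EPCAM, ALDH1A2 and KRT19 were the most abundant markers of this list. RF replicate 3, where WT1 was highest, had the highest value in 0 of 7 tested markers, but its ALDH1A2 nearly equalled that of RF replicate 1. The part of surface epithelium in the WT1 difference was not tested. ALDH1A2, which makes retinoic acid, had 498 and 555 in FF hens, against 1306, 676 and 1304 in RF hens, and did not pass (adjusted p = 0.178). In the theca and stroma list, 0 of 17 tested genes passed in limma (6 at an unadjusted p under 0.05, next to 17.8% of all tested genes). Their median log2 fold change was −1.66, and RF replicate 3 was highest in 2. WT1 in RF replicate 1, where 11 of these 17 markers were highest, was the lowest of the RF hens. Both FF hens lay below every RF hen in 8 of these 17, next to 16.9% of all tested genes. The part of theca and stroma in the WT1 difference was not tested. Red blood cell markers, in contrast, were above the RF hens in both FF hens in 5 of 5 tested genes, next to 19.3% of all tested genes (3667 and 4011 summed in FF hens, against 1296 to 1627 in RF hens, and mostly ALAS2, with HBA1 and HBBA next). ALAS2, a heme synthesis enzyme, passed (log2 fold change 1.33, adjusted p = 0.0223). TAL1, a factor of blood cell lineages, had 12 and 30 in FF hens, against 10, 4 and 2 in RF hens. No row was matched to GATA1, the GATA factor of red blood cells, so it was not analysed. The part of red blood cells in the GATA6 difference was not tested. Endothelial markers summed to 4787 and 5502 in FF hens, against 3936 to 5339 in RF hens, with EGFL7, PECAM1 and TIE1 the most abundant. White blood cell markers summed to 988 and 1322, against 824 to 1065, with CD3E, CSF1R and PTPRC the most abundant. Of 8 tested genes in each of these lists, 0 passed in limma. At an unadjusted p under 0.05 there were 1 endothelial and 3 white blood cell markers, next to 17.8% of all tested genes. Of 8 tested genes of the oocyte list, 1 was lower in FF hens, ZP2 (log2 fold change −1.0, adjusted p = 0.0229), and 1 was higher, listed as UMOD and matched to the ZPD of the list (2.67, adjusted p = 0.0115). Over all tested genes, 0.241% were called lower and 0.842% higher. The study listed UMOD, and HBA1 of the red blood cell list, as higher in FF hens, so their direction is not independent evidence. At an unadjusted p under 0.05 there were 7 of these 8 in limma, next to 17.8% of all tested genes. Both FF hens lay below every RF hen in 5 and above in 2, next to 16.9% and 19.3% of all tested genes. ZP3, an egg coat gene that avian granulosa cells themselves make, gave most of the sum of this list, and ZP2 and UMOD came next. Without FF replicate 1, ALAS2, ZP2 and UMOD had adjusted p values of 0.176, 0.176 and 0.169, and without FF replicate 2 they had 0.135, 0.135 and 0.132. Without RF replicate 2, ALAS2 and ZP2 had 0.0752 and 0.0808, and ZP2 had 0.0838 without RF replicate 1.

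The genes next to the factors were taken from the RefSeq table, used for gene order only. Beside WT1, RCN1 and CCDC73 were not matched to a single row, so values were read for EIF3M and PAX6 only. The groups overlapped in EIF3M. EIF3M, a translation factor gene next to WT1, had 1970 and 2281 normalized counts in FF hens, against 2114, 2153 and 2348 in RF hens (log2 fold change −0.055, adjusted p = 0.868 from limma), and PAX6, near its other side, was at 3 or below. FDFT1, a cholesterol synthesis gene near GATA4, had 25146 and 25074 in FF hens, against 18840 to 20536 in RF hens (log2 fold change 0.34, adjusted p = 0.202 from limma). MIB1, an E3 ligase gene beside GATA6, had 2099 and 2487 in FF hens, against 1457, 1788 and 1911 in RF hens, and so did not overlap between groups, as GATA6 did not (log2 fold change 0.42, adjusted p = 0.257). ABHD3, the gene beyond MIB1 on that side, had 601 and 192 in FF hens, against 44, 38 and 86 in RF hens (log2 fold change 2.67, adjusted p = 0.0837 from limma). The study listed ABHD3 as higher in FF hens from these same libraries, so its direction is not independent evidence. In FDFT1, MIB1 and ABHD3 both FF hens lay above every RF hen, as in 19.3% of all tested genes. The same held for PER2, MRPS22 and COPB2 near FOXL2 (log2 fold changes of 0.33, 0.35 and 0.39), which did not pass. In PIK3CB, which overlaps FOXL2, both FF hens lay below every RF hen. NEIL2 near GATA4 and CABLES1 near GATA6 overlapped between the groups, with log2 fold changes of −0.36 and −0.43. RBBP8, on the other side of GATA6, overlapped between the groups (log2 fold change −0.15, adjusted p = 0.739). This comparison of neighbours was added after the values of the factors were seen.

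Across 14 other settings, the adjusted p of WT1 lay between 0.104 and 0.395, that of GATA6 between 0.195 and 0.523, that of GATA4 between 0.354 and 0.852 and that of FOXL2 between 0.595 and 0.988. WT1 stayed lower and GATA4 and GATA6 stayed higher in FF hens in sign under each of them. The log2 fold change of WT1 ran from −1.74 to −0.99, that of GATA4 from 0.060 to 0.29 and that of GATA6 from 0.40 to 0.73.

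**Figure D5:**
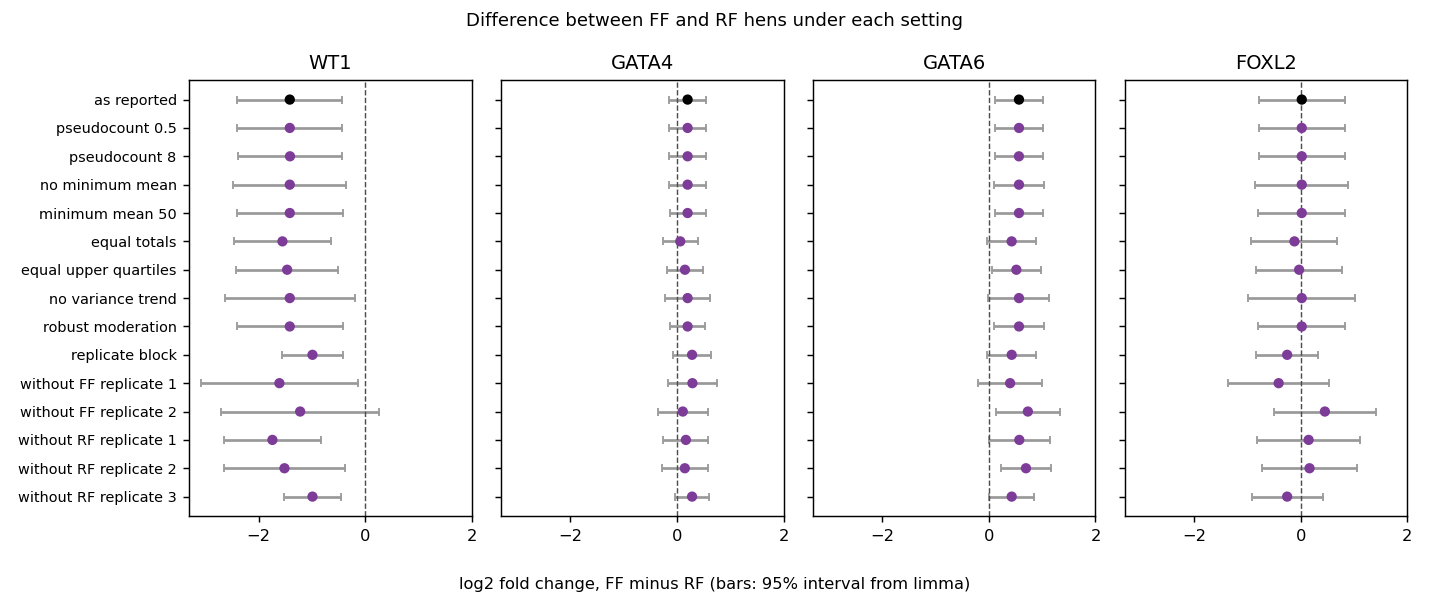
log2 fold change, FF minus RF (x axis), of each factor as reported (black) and under 14 other settings (purple, rows), with 95% intervals from limma (grey). WT1 lies left of 0 and GATA4 and GATA6 right of 0 in every row, and FOXL2 falls on both sides.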

How the data were processed

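Poly(A)-selected, directional libraries, 1 per hen, were sequenced by the authors, whose processing notes name Trim Galore, STAR, the galGal6 build and DESeq2. The sources used here give neither their versions nor the read counter. The deposited values are DESeq2 counts divided by a size factor for each library and rounded by the authors to whole numbers, and were treated as a score, not as raw reads. What 1 read is worth was estimated from the spacing of low values as 0.813 to 1.213 normalized counts. It is under 1 in 3 libraries, where rounding merged neighbouring read counts, so no count model was run.

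The difference FF minus RF was fitted in R 4.3.3 by limma 3.58.1, two-sided, to log2(normalized count + 1), with its variance prior following the mean. P-values were adjusted by Benjamini and Hochberg over all 13305 genes averaging 10 or more. Of 13305 genes, 112 were higher and 32 lower in FF hens at an adjusted p under 0.05. Fold changes on this scale understate those of low genes. There were 3 residual and 3.7 prior degrees of freedom. P-values measure the spread between hens of a group, with 1 pool of follicles per hen.

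The members and the 12 lists (GATA and FOG family, WT1 partners, ovarian and testis pathways, targets, and 7 lists of cell type markers) were chosen with earlier results of these data known. Listed genes were matched by symbol or, where missing, by an older symbol in the RefSeq table of GRCg7b. Genes named are the 4 members, list genes past an adjusted p of 0.05 or else the 2 with the largest change at a mean of 200 in a group, the 3 most abundant markers of each cell type, the 3 genes most alike to each member, defining markers at or near 0, and those said to be picked later. A gene that this rule names is not reported here. Alternatives changed the pseudocount (0.5, 8), the minimum mean (none, 50), the scaling, the variance model and the replicate block, and left out each library. Figures used matplotlib 3.10.9 in Python 3.11.15.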

Additional observations from a re-analysis of the deposited data

How the results depend on the processing

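No call for WT1, GATA4, GATA6 or FOXL2 changed under the 14 other settings, because none passed under any. All of these settings used limma on log2 values. The DESeq2 model of the study, which called WT1, was not among them. The FOXL2 log2 fold change of 0.022 turned negative with equal totals (−0.12), with equal upper quartiles (−0.027), with the replicate block (−0.25), without FF replicate 1 (−0.41) and without RF replicate 3 (−0.25). Leaving out single libraries gave −0.41 to 0.46 for FOXL2, −1.74 to −0.99 for WT1, 0.11 to 0.29 for GATA4 and 0.40 to 0.73 for GATA6. With an FF library left out, the lone FF hen is assumed to vary like the RF hens. The sample labels do not state that replicate numbers pair hens. Deviations from the group mean correlated at 0.11 and −0.073 between same-numbered libraries, and at 0.17 between FF replicate 2 and RF replicate 3. With 2 FF libraries these deviations mirror each other, so FF replicate 2 repeats FF replicate 1 with the opposite sign. These values therefore cannot decide whether hens were paired. The replicate block leaves out RF replicate 3 in effect, since it has no partner, and gave −0.99 for WT1, 0.43 for GATA6 and 0.28 for GATA4, and 53 genes higher and 9 lower over all genes, against 112 and 32 without it. These counts were 90 and 70 with equal totals, 106 and 41 with equal upper quartiles, 13 and 1 with no minimum mean, 0 and 0 in limma without the variance trend (2188 at an unadjusted p under 0.05), 1 and 0 with either FF library left out, 20 and 3 without RF replicate 1, and 26 and 7 without RF replicate 2.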
